A study of Homo sapiens with 4 samples.

Results

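This account covers 41 genes that mark the first lineages to leave the pluripotent state, chosen by their known germ layer roles and grouped as primitive streak and mesoderm, endoderm, neural, and amnion and trophoblast genes. A further group holds 4 transcription factors of later neural or mesenchymal cells (EBF2, POU3F4, HMX2 and OLIG3), which were taken up with their large difference between these libraries already known. The other genes, and the further gene lists used below, were also chosen with earlier results of these data known. Counts of them set beside all genes are therefore descriptions. Of the 41 genes, 37 were listed among the 19775 genes of the deposited table, with TBXT under T, which RefSeq gives as a synonym of that gene alone, and TFAP2B, CDX2, ISL1 and TP63 were not listed. The cells were H1 human embryonic stem cells, an established line of wild-type genotype, and RNA was poly(A)-selected and sequenced in paired ends. The labels give 2 samples in E8 medium with 1 µM XMD892, an inhibitor of the kinase ERK5, for 12 h and 2 samples in E8 alone for 12 h. E8 is a defined medium with insulin, FGF2 and TGFβ, which both groups shared. The columns of untreated cells are named for 48 h and matched neither E8 sample, so the E8 samples were not analysed here. No effect of XMD892 is given, and the results describe transcript levels under treatment and the spread between replicate 1 and replicate 2 of that treatment. A further column named for XMD892 at 12 h, with replicate number 3, has no sample in the labels and was not used either. The labels do not say whether replicates 1 and 2 came from separate cultures, so the spread may be technical.

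In the embryo, pluripotent epiblast cells that receive NODAL, WNT and BMP signals enter the primitive streak, switch on the T-box factors TBXT and EOMES, and become mesoderm or definitive endoderm. Cells shielded from these signals take a neural fate marked by SOX1, SIX3 and their relatives, and cells under strong BMP signalling can form amnion or trophoblast-like cells marked by GATA2, GATA3 and AP-2 factors. In undifferentiated human stem cells many of these genes are held in a silent but inducible chromatin state, and a few, such as TFAP2C and NES, are expressed already.

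Reads on listed genes totalled 18528689 in replicate 1 and 20217648 in replicate 2. The unit RPKM scales a gene's reads by its merged exon length and by this total, so that levels can be compared between genes, and means carry the SD over 2 libraries. All 12 genes of a list of primed pluripotency markers exceeded 1 RPKM in each library. The median was 0.538 RPKM for the 37 lineage genes, or 0.356 RPKM without the 4 later factors. It was 128.7 RPKM for the pluripotency markers and 2.31 RPKM for all 19263 genes with a length. SOX2 stood at 94.5 ± 6.06 RPKM, NANOG at 29.3 ± 1.07 RPKM, LIN28A at 469 ± 95.01 RPKM and POU5F1 at 1082 ± 492 RPKM (SD, n = 2), so the labelled cell type had its markers. NANOG and POU5F1 have near-identical pseudogenes, with which reads can be shared. Only 8 of the 37 lineage genes reached 1 RPKM in both libraries, while 59.5% of all genes with a length did. In replicate 1 alone 11 did and in replicate 2 alone 14. The 8 were KDR, NES, POU3F1, SIX3, FEZF1, LHX5, TFAP2C and IGFBP3. In bulk RNA a low level can mean few cells with the transcript or little of it in each cell, and the 2 cannot be told apart.

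**Figure D1:**
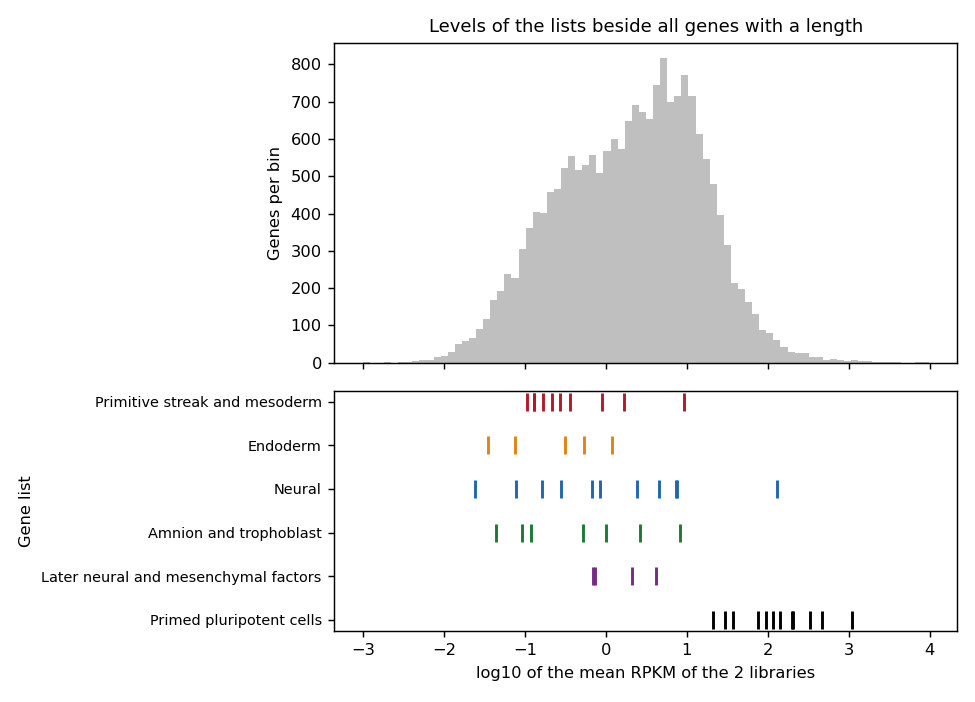
The upper panel is a histogram of the mean RPKM of the 2 treated libraries (log10 scale) over all genes with a length and at least 1 read, and each tick in the lower panel is a gene of the named list. The median lineage gene lies at 0.538 RPKM (0.356 RPKM without the 4 later factors) and the median pluripotency marker at 128.7 RPKM.

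**Figure D2:**
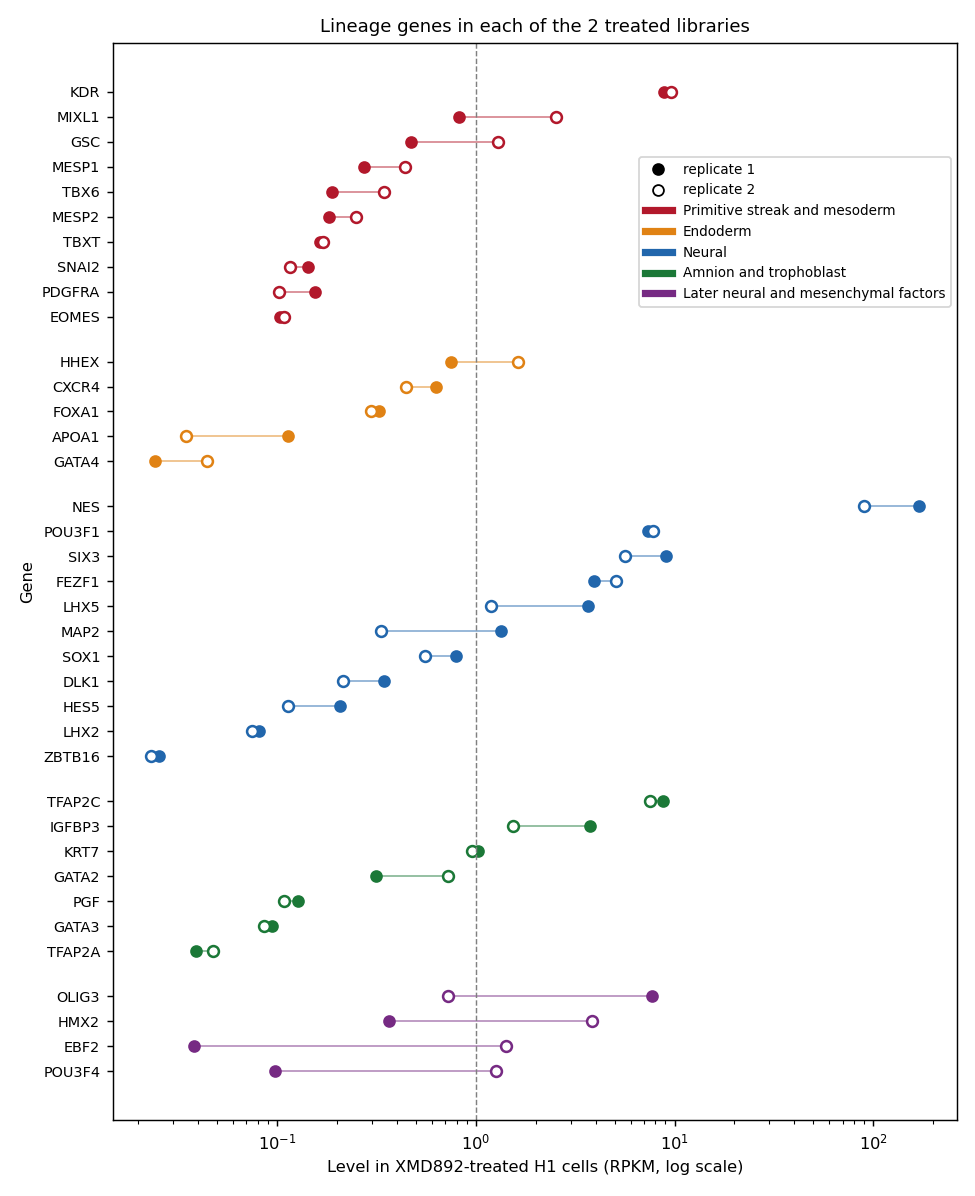
Level of each listed lineage gene in RPKM (log scale) in replicate 1 (filled) and replicate 2 (open) of H1 cells treated with XMD892, with the 2 values of a gene joined by a line and a dashed line at 1 RPKM. NES is the highest at 169.9 and 89.7 RPKM, and the 4 later factors, taken up with their gap already known, have the widest gaps.

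The primitive streak and mesoderm genes were low except for KDR. The table lists all 10, with a median of 0.242 RPKM and 1 gene at 1 RPKM in both libraries, or 3 in replicate 2 alone. KDR encodes the VEGF receptor VEGFR2, a marker of mesodermal and endothelial precursors that human pluripotent cells also carry. It had 1081 reads in replicate 1 and 1271 in replicate 2, or 9.23 ± 0.487 RPKM, from a gene on the minus strand of chromosome 4 (55078259 to 55125595, GRCh38). The libraries were close for this gene, with a log2 difference (replicate 1 minus replicate 2, on normalized counts plus 1) of -0.21 and an exact 95% counting interval of -0.33 to -0.091. The factors that define the streak had few reads. TBXT (brachyury) had 8 reads in replicate 1 and 9 in replicate 2, and EOMES had 7 and 8 reads. Both stood below 0.2 RPKM in each library.

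MIXL1 and GSC, homeobox genes switched on by NODAL and activin in the forming streak, were the next highest and were uneven between the libraries. MIXL1 had 31 reads (0.825 RPKM) in replicate 1 and 104 reads (2.54 RPKM) in replicate 2. GSC, which encodes goosecoid, had 11 reads (0.470 RPKM) and 33 reads (1.29 RPKM) in the same order. Replicate 2 was the higher library for both genes, by 3.30-fold for MIXL1 (interval 2.19 to 5.10) and by 2.95-fold for GSC (interval 1.45 to 6.47). Folds are ratios of normalized counts, and their intervals cover counting error only. The genes of the next step, presomitic and cardiac mesoderm, were lower: MESP1 had 12 reads in replicate 1 and 21 in replicate 2, TBX6 had 11 and 22, and MESP2 had 6 and 9. All 3 had more reads in replicate 2, but the intervals of MESP1 (-1.94 to 0.31 on the log2 scale), TBX6 (-2.17 to 0.13) and MESP2 (-2.33 to 1.09) included equal levels. PDGFRA, a receptor of paraxial mesoderm, had 28 and 20 reads (interval -0.37 to 1.42), and SNAI2, a factor of epithelial to mesenchymal transition, had 9 and 8. Of the 6 genes above a mean normalized count of 10, 5 were higher in replicate 2, against 52.1% of the 16148 genes that passed this minimum, and their median difference was -0.83, against -0.023 over all of those.

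The promoters of MIXL1 and GSC are shown because these genes are the textbook NODAL targets of the streak set and differed in the same direction. They run from 250 bases before to 50 bases after the RefSeq start (GRCh38.p14), 5′ to 3′ on the gene's strand. MIXL1 occupies chr1:226223414-226223713 on the plus strand and GSC occupies chr14:94770064-94770363 on the minus strand. Capitals mark matches on either strand to TGTNNATT, the core bound by the NODAL partner FOXH1, to CAGAC, the SMAD box, and to TATAAA, the TATA box, and none of these matches overlap.
MIXL1: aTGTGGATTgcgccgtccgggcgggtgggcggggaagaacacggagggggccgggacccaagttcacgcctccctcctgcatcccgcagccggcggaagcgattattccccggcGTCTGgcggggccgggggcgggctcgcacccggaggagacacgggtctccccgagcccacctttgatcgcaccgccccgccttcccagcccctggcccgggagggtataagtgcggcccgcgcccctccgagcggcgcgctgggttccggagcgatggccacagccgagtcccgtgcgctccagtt
GSC: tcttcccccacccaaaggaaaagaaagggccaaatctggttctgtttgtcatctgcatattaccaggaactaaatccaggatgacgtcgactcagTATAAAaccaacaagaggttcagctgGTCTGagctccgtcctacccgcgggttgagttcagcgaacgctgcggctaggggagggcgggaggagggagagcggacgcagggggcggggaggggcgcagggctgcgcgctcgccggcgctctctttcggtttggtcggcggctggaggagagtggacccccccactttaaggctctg
MIXL1 held a FOXH1 core at -249 to -242 and a SMAD box at -136 to -132 from the start. GSC held a SMAD box at -129 to -125 and a TATAAA at -155 to -150, and no FOXH1 core in this window. These positions hold for the RefSeq start only. The GENCODE annotation places the 5′ end of GSC at 94770230, inside the window and upstream of that start. Among all 35116 promoters of this length, 11.0% held the FOXH1 core, 45.3% the SMAD box and 11.5% the TATA box. Of the 37 listed lineage genes 26 had a promoter in the RefSeq table, and over any of their starts 6 held the FOXH1 core, 15 the SMAD box and 7 the TATA box. Over the 11999 listed genes with a promoter the shares were 8.69%, 51.4% and 8.83%. A match describes letters and is no evidence of binding. The promoters of the 26 genes had a median GC content of 64.9%, against 64.7% over all 11999 genes.

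The endoderm genes were low throughout. The table lists all 5, with a median of 0.312 RPKM, and 0 were at 1 RPKM in both libraries, or 1 in replicate 2 alone. HHEX, a homeobox factor of anterior definitive endoderm and liver, was the highest, with 35 reads (0.748 RPKM) in replicate 1 and 83 reads (1.63 RPKM) in replicate 2. It was 2.33-fold higher in replicate 2 (interval 1.55 to 3.57), and its gene spans 92689951 to 92695646 on chromosome 10 (plus strand). CXCR4, the chemokine receptor used to sort definitive endoderm, had 26 and 20 reads, and the pioneer factor FOXA1 had 24 in each library. The intervals of CXCR4 (-0.49 to 1.32) and FOXA1 (-0.85 to 0.90) included equal levels. GATA4, a factor of endoderm and heart, had 2 reads in replicate 1 and 4 in replicate 2, and APOA1, a liver apolipoprotein, had 3 and 1. At such counts no difference between the libraries was detectable.

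The neural genes held the highest level of the 37 and the widest range within a lineage. The table lists all 11, with a median of 0.837 RPKM and 5 genes at 1 RPKM in both libraries. The median was 1.34 RPKM in replicate 1 alone and 0.557 RPKM in replicate 2 alone. NES encodes nestin, an intermediate filament of neural progenitors that pluripotent cells also make. It had 17496 reads in replicate 1 and 10074 in replicate 2, or 129.8 ± 56.7 RPKM, at percentile 98.8 of all genes with a length. NES was 1.77-fold higher in replicate 1 (interval 1.72 to 1.81), and its gene spans 156668763 to 156677397 on chromosome 1 (minus strand). No other lineage gene exceeded 10 RPKM in either library.

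Below NES came POU3F1, SIX3, FEZF1 and LHX5, transcription factors of the early neural plate and forebrain. POU3F1 (OCT6) had 299 reads in replicate 1 and 345 in replicate 2, or 7.60 ± 0.300 RPKM, and its interval of -0.41 to 0.046 included equal levels. SIX3, an anterior forebrain and eye factor, had 425 and 286 reads, or 7.35 ± 2.46 RPKM, and was 1.51-fold higher in replicate 1 (interval 1.30 to 1.76). The SIX3 values of 9.09 and 5.61 RPKM span those of POU3F1, so the order of these 2 genes is not resolved. FEZF1, a forebrain zinc finger factor, had 190 and 269 reads, or 4.51 ± 0.826 RPKM, and was 1.39-fold higher in replicate 2 (interval 1.15 to 1.68). LHX5, a LIM homeobox factor of the forebrain, had 213 reads (3.68 RPKM) in replicate 1 and 75 reads (1.19 RPKM) in replicate 2. It was 2.89-fold higher in replicate 1 (interval 2.21 to 3.81). MAP2, a microtubule protein of neuronal dendrites, showed the largest gap of the neural genes. It had 287 reads (1.34 RPKM) in replicate 1 and 78 reads (0.334 RPKM) in replicate 2, a 3.74-fold difference (interval 2.90 to 4.87).

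The remaining neural genes were low in both libraries. SOX1, the earliest specific marker of the neural plate, had 42 reads in replicate 1 and 32 in replicate 2, or 0.677 ± 0.170 RPKM. DLK1, an imprinted Notch-related ligand, had 34 and 23 reads. The intervals of SOX1 (-0.28 to 1.13) and DLK1 (-0.22 to 1.42) included equal levels. HES5, a Notch target that maintains neural progenitors, had 5 and 3 reads, LHX2, a cortical and eye factor, had 4 in each library, and ZBTB16, a zinc finger factor of early neural progenitors, had 3 in each. Of the 8 neural genes above the minimum, 6 were higher in replicate 1, against 47.9% of all tested genes, and their median log2 difference was 0.58.

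The amnion and trophoblast genes had 7 of 11 members listed, 2 at 1 RPKM in both libraries and a median of 0.518 RPKM. The median was 0.315 RPKM in replicate 1 alone and 0.721 RPKM in replicate 2 alone. TFAP2C (AP-2 gamma), a factor of trophoblast, amnion and germ cells that is also active in human pluripotent cells, had 489 reads in replicate 1 and 457 in replicate 2. At 8.15 ± 0.891 RPKM and with an interval of -0.065 to 0.31, it was close in both libraries, and its gene spans 56629302 to 56639283 on chromosome 20 (plus strand). Its paralogue TFAP2A, an early gene of amnion and surface ectoderm, had 6 and 8 reads. GATA3, a central trophoblast and amnion factor, had 6 in each library. GATA2, its partner in trophoblast, had 26 reads (0.315 RPKM) in replicate 1 and 65 reads (0.721 RPKM) in replicate 2, and was 2.46-fold higher in replicate 2 (interval 1.54 to 4.04). IGFBP3, a secreted binding protein for insulin-like growth factors, went the other way, with 319 reads (3.77 RPKM) in replicate 1 and 142 reads (1.54 RPKM) in replicate 2. It was 2.29-fold higher in replicate 1 (interval 1.87 to 2.80). KRT7, a keratin of trophoblast and simple epithelia, had 78 and 79 reads (interval -0.46 to 0.48), or 0.992 ± 0.052 RPKM, at the 1 RPKM limit, with 1.03 RPKM in replicate 1 and 0.955 RPKM in replicate 2. PGF, the placental growth factor, had 14 and 13 reads (interval -1.07 to 1.34). Of the 5 tested genes of this list 4 were higher in replicate 1, against 47.9% of all tested genes, with a median difference of 0.12. Of those 4, KRT7, PGF and TFAP2C had intervals that included equal levels.

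The 4 later factors differed most between the libraries, which was known when they were taken up and is given as a description. EBF2, a factor of brown fat and of neuronal lineages, had 5 reads (0.0381 RPKM) in replicate 1 and 203 reads (1.42 RPKM) in replicate 2. POU3F4, a POU factor of the neural tube and inner ear, had 7 reads in replicate 1 and 99 in replicate 2. HMX2, a homeobox factor of the inner ear and hypothalamus, had 11 and 126 reads. These 3 genes were higher in replicate 2. The fold was 39.9 for EBF2 (interval 16.8 to 124), 13.9 for POU3F4 (interval 6.50 to 35.5) and 11.3 for HMX2 (interval 6.08 to 23.1). The lower counts are few, so the size of these ratios is loosely set. OLIG3, a helix-loop-helix factor of the dorsal neural tube, went the other way. It had 291 reads (7.66 RPKM) in replicate 1 and 30 reads (0.724 RPKM) in replicate 2, a 9.87-fold difference (interval 6.76 to 14.9). Its promoter is shown as that of the lineage gene most in excess in replicate 1. It occupies chr6:137494345-137494644 on the minus strand, by the same window and motifs.
OLIG3: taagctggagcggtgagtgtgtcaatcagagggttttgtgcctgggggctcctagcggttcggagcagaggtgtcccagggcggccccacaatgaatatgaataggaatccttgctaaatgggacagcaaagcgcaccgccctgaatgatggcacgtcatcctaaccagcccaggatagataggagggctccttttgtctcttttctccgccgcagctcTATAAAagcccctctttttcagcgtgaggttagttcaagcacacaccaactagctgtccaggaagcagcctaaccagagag
This window held a TATAAA at -31 to -26 from the RefSeq start and neither the FOXH1 core nor the SMAD box.

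**Figure D3:**
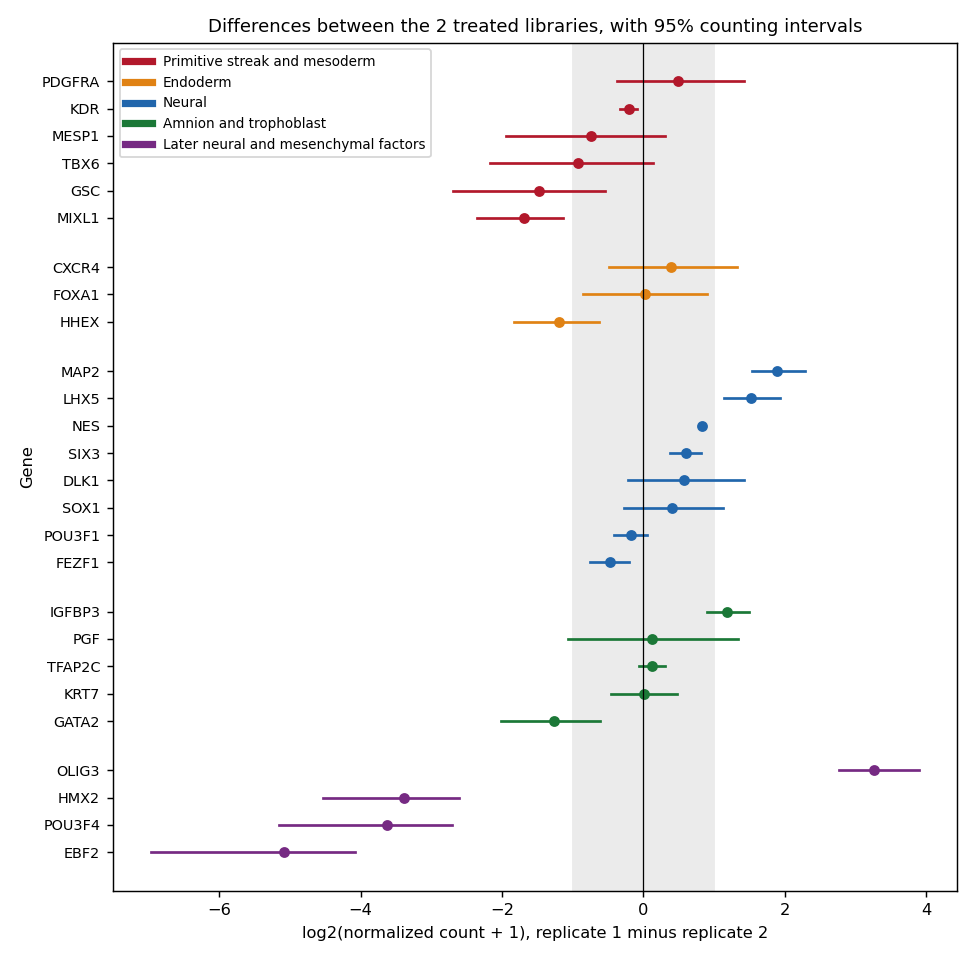
Difference in log2(normalized count + 1), replicate 1 minus replicate 2, for the 26 lineage genes whose mean normalized count was 10 or more, with exact 95% counting intervals as bars and a grey band for gaps under 2-fold. MIXL1 (-1.69), GSC (-1.48), HHEX (-1.20) and GATA2 (-1.27) lie toward replicate 2, and MAP2 (1.89), LHX5 (1.52) and IGFBP3 (1.19) toward replicate 1.

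Differences of the lineage genes between the libraries were set against those of the whole table. Of the 37, 26 reached a mean normalized count of 10, and 11 of these had a gap of at least 2-fold, against 10.9% of the 16148 genes that passed. Of the 11, 4 were higher in replicate 1 (background 6.14%) and 7 in replicate 2 (background 4.76%). Without the 4 later factors 7 of 22 genes had such a gap, 3 toward replicate 1 and 4 toward replicate 2. Gaps of this size were commoner at low counts: 26.4% of genes with a mean normalized count of 10 to 100 had one and 4.26% of those at 100 or more did. In the lower range 6 of 15 lineage genes had it, or 4 of 13 without the later factors. In the upper range 5 of 11 did, or 3 of 9 without them, and these 3 were LHX5, MAP2 and IGFBP3. Their mean normalized counts were 154, 195 and 246, toward the lower end of that range. The 4.26% covers the whole range and may understate the share at their counts, which was not computed. The counting interval excluded equal levels for 15 of 26, against 58.1% of all tested genes, a share near the background. With 1 library on each side no p-value is given. Beyond each other, the 2 libraries were set against no further library of this treatment, since the further XMD892 column was not used.

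**Figure D4:**
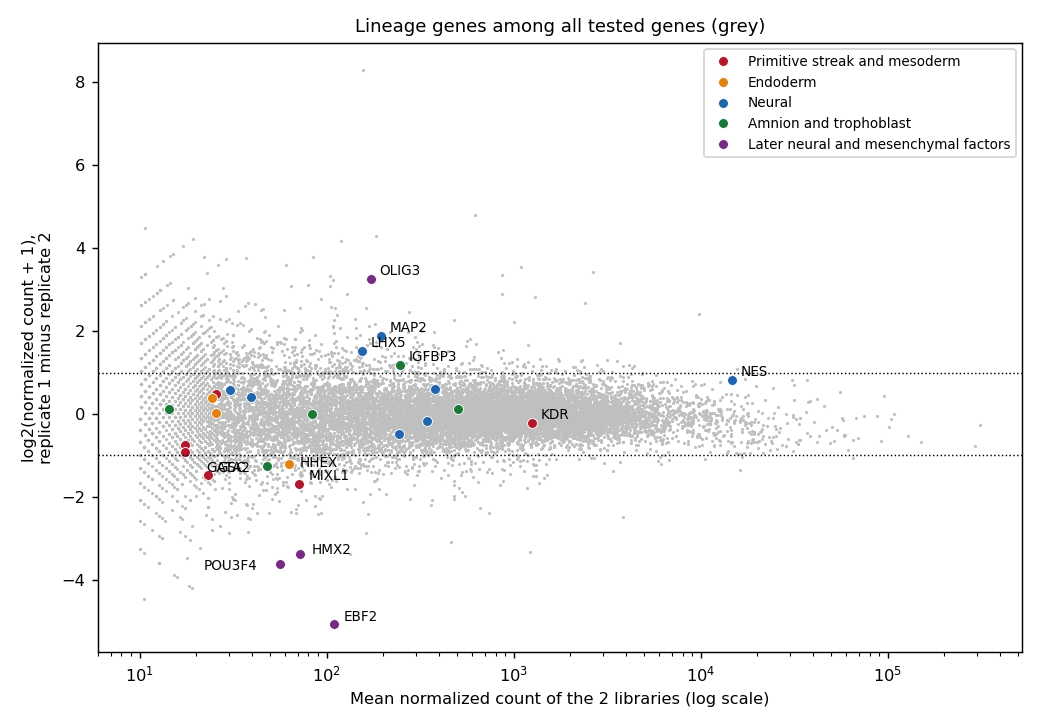
Difference between the treated libraries (log2 scale, replicate 1 minus replicate 2) against the mean normalized count (log scale) for all 16148 tested genes in grey and the 26 lineage genes in colour, with dotted lines at a 2-fold gap. LHX5, MAP2 and IGFBP3 lie outside the dotted lines at mean normalized counts of 154, 195 and 246. Over the whole range from 100 upward 4.26% of genes do so, and the share at these 3 counts was not computed. OLIG3 and EBF2 also lie there, but were taken up with their gap already known.

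Other genes of the same lineages, which are not among the 41, were read from companion lists. The table lists 8 of 14 further streak and mesoderm genes. In both libraries 2 of them reached 1 RPKM, DLL3, a Notch ligand of presomitic mesoderm, at 3.78 RPKM and SNAI1, a repressor of epithelial genes, at 3.22 RPKM. In this list 6 of 7 tested genes were higher in replicate 2, against 52.1% of all tested genes, led by DLL3 with 80 and 313 reads and the organizer factor LHX1 with 18 and 68 reads. Of the 7, only DLL3 and LHX1 had intervals that excluded equal levels. The table lists 4 of 14 further endoderm genes. The highest were KIT, a receptor that germ cells and stem cells also carry, at 11.5 RPKM and FOXA3, a hepatic forkhead factor, at 5.89 RPKM. APOB stood at 0.056 RPKM and PRDM1 at 0.012 RPKM. SOX17, FOXA2, GATA6, CER1, HNF4A and AFP were among those not listed. The table lists 11 of 14 further neural genes, 6 of them at 1 RPKM in both libraries, with SOX11 at 27.2 RPKM and SIX6 at 26.9 RPKM the highest. Their direction was mixed, with a median difference of 0.083. Of 10 tested genes 6 had more reads per size factor in replicate 1, against 47.9% of all tested genes. Of these 10 genes 3 had a 2-fold gap, against 10.9% of all tested genes. That share was 26.4% at mean normalized counts of 10 to 100 and 4.26% at 100 or more. OTX2, a forebrain factor, had 128 reads in replicate 1 and 34 in replicate 2, the neuronal tubulin TUBB3 had 166 and 70, and the adhesion molecule NCAM1 went the other way with 296 and 610. It lists 7 of 14 further amnion and trophoblast genes, led by the simple epithelial keratins KRT8 at 168 RPKM and KRT18 at 146 RPKM, which epithelial stem cell colonies also make. All 7 were above the minimum and 0 had a 2-fold gap, against 10.9% of all tested genes.

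Some markers of the stem cells themselves and of other cells and states also differed between the libraries. POU5F1 was 2.09-fold higher in replicate 2 (interval 2.07 to 2.12), while SALL4 was 1.81-fold and DNMT3B 1.62-fold higher in replicate 1. Of the 12 pluripotency markers 6 were higher in each library, and POU5F1 was the 1 with a 2-fold gap, against 10.9% of all tested genes. That call depends on the scale. In RPKM, which uses total reads, POU5F1 stood at 734 in replicate 1 and 1430 in replicate 2, short of 2-fold. Of 10 fibroblast genes 6 were listed, and their summed level was 109.9 RPKM in replicate 1 and 74.5 RPKM in replicate 2. Within that list TAGLN had 4515 and 423 reads, COL1A1 had 1429 and 196, and COL1A2 had 1242 and 867. The other 3 had more reads in replicate 2: THY1, which stem cells also carry, had 3698 and 7685, COL6A3 had 16 and 23, and ACTA2 had 4 and 8. The interval of COL6A3 (-1.52 to 0.48) included equal levels, and ACTA2 fell under the minimum count. The defining fibroblast genes COL3A1, DCN, LUM and POSTN were not listed. Among targets of low oxygen, named after their values were seen, BNIP3 had 1078 reads in replicate 1 and 6184 in replicate 2, SLC16A3 had 206 and 2111, and VEGFA had 619 and 975. No list of such targets was set in advance, and a difference in oxygen was not tested. The part of these differences in those of the lineage genes was not tested. Of the listed lineage genes 8 overlap an exon of a gene on the other strand. FEZF1 overlaps FEZF1-AS1, which had 296 and 338 reads, and LHX5 overlaps LHX5-AS1, which had 19 and 10. The strand setting of the counting is not given in the sources used here, so reads of such pairs cannot be told apart, and PDGFRA shares exons with another gene on its own strand.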

How the data were processed

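The authors deposited a single table of normalized counts, a signal that divides each gene's read count by 1 size factor per library. Every value in the columns used was a whole multiple of 1 step (within 0.01 reads for 100% of the 19775 genes), and division by that step recovered the reads. Per the submitters' processing notes the tools were Trimmomatic 0.36, STAR, featureCounts 1.5.3 and DESeq2 1.26.0, with the build hg38 and no roles stated. Annotation, strand setting and gene filter were not given in the sources used here.

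Columns were matched to samples by treatment, time and replicate number. Of 9 columns of values 7 matched no sample and were not used, among them an XMD892 column at 12 h with replicate number 3; the planned test of XMD892 against E8 was therefore not run. The members and gene lists were chosen with earlier results of these data known. RPKM used merged exon lengths from GENCODE release 29 (GRCh38), available for 19263 genes. Differences were log2(normalized count + 1) over genes whose mean normalized count was 10 or more, a scale that understates low genes. Intervals are exact Clopper-Pearson 95% intervals on recovered reads, and as reads carry no molecular identifiers they cover counting error only. The calculation was checked on simulated counts with known folds and counting error only. That check does not show how the intervals behave with the wider spread of these libraries. All listed members are named, with an interval or fold for those above the minimum, and the 2 highest genes of each companion list. LHX1, APOB, PRDM1, OTX2, TUBB3, NCAM1, SALL4, DNMT3B, the fibroblast and the low oxygen genes were named after their values were seen. Promoters are RefSeq sequences. Python 3.11.15, scipy 1.17.1 and R 4.3.3 with edgeR 4.0.16 (for TMM scaling) and limma 3.58.1 (for quantile normalization) were used.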

Additional observations from a re-analysis of the deposited data

How the results depend on the processing

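No paired analysis was possible because the E8 samples had no matching column, and for the same reason none of the alternatives for XMD892 against E8 was run. Leaving out a library leaves no difference between libraries to compute. Of 130 single-gene differences recomputed with other scales or pseudocounts, 0 of those whose interval excluded equal levels changed direction; FOXA1 was the 1 gene to change sign, at -0.058 with quantile normalization. The number of lineage genes at the required level in both libraries was 8 at 1 RPKM and 13 at 0.5 RPKM, and in a single library it ran from 11 to 14. At 0.5 RPKM it was 2 for streak, 1 for endoderm and 1 for the later factors, and at 2 RPKM it was 1 for amnion and trophoblast. With 1 library left out the counts ran from 1 to 3 for streak, from 0 to 1 for endoderm, from 5 to 6 for neural, from 2 to 3 for amnion and trophoblast and from 1 to 3 for the later factors. With the longest transcript as length the endoderm count was 1, the endoderm median 0.434 RPKM and the median of all lineage genes 0.677 RPKM. In a single library the median ran from 0.557 to 1.34 RPKM for neural and from 0.315 to 0.721 RPKM for amnion and trophoblast, that of all ran from 0.325 to 0.445 RPKM and that of the later factors from 0.231 to 1.34 RPKM. A gap of 2-fold was counted for 11 lineage genes, or 7 without the 4 later factors, an alternative chosen after seeing the data. With quantile normalization the number was 13, as NES (1.05) and TBX6 (-1.03) also passed 2-fold. It was 12 with no minimum and 9 with a minimum of 50. With a minimum of 50 the counts were 1 for streak and 1 for amnion and trophoblast, and with no minimum 2 for endoderm. The median log2 difference of the streak genes was -0.94 with quantile normalization, -0.68 with a pseudocount of 5, -0.35 with no minimum and -0.95 with a minimum of 50. With a minimum of 50 the medians were -1.20 for endoderm, where HHEX alone was left, 0.71 for neural and -0.088 for all lineage genes. With no minimum the amnion and trophoblast median was 0.021, and with a pseudocount of 5 that of the later factors was -3.08. Depth limits the low members: 11 of the 37 fell under the minimum, and their intervals allow severalfold differences.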
